A study of Mus musculus with 4 samples.

Results

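The Skint genes of mouse chromosome 4 were followed through both dye channels of 4 arrays that measured the copy number of DNA. All probes carrying the name of Skint2, Skint3, Skint4, Skint6, Skint7, Skint9 or Skint10 were taken, which gave 7 of the 20445 autosomal genes named by the array and 31 of its 54669 probes. Another 23 probes lie among these genes and before the first of them, and the whole window of 54 probes runs from position 111548668 to 112785680 of chromosome 4 (mouse build mm9). The family was chosen by its ratios of sample over reference on these same arrays. Those ratios, and the channel signals that make them, are therefore given as a description without a test.

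The study used array comparative genomic hybridisation, in which sample DNA with 1 dye and reference DNA with another compete for the same probe. All 4 samples are DNA of liver cells with the genotype TAK1LPC-KO_RIP3-_-, taken from formalin-fixed, paraffin-embedded (FFPE) tissue, labelled with Cy5 and numbered replicate 1 to replicate 4. The reference, labelled with Cy3, is a pool of 4 normal livers and is the only control. No dyes were swapped, and there is no second group of samples. The names stand for a loss of TAK1, a kinase of TNF signalling, in liver parenchymal cells and of RIP3, a kinase of necroptosis. The labels give no strain, sex, age or treatment for the samples or for the pool, and no driver of the liver-specific deletion. The labels also do not say that the samples are from separate animals. The p-values below therefore reflect the spread of these 4 arrays only, and that spread may be technical. Any difference between the samples and the pool that is due to strain cannot be told apart from one that is due to the genotype.

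Skint genes encode membrane proteins of the immunoglobulin superfamily that resemble butyrophilins and are expressed mainly in skin and thymus. The founding gene, Skint1, is needed in thymic epithelium for the selection of the γδ T cells that settle in mouse epidermis. Skint3 and Skint9 are known from keratinocytes at wound edges, where they take part in signalling to these T cells. The genes lie side by side as near copies in a cluster of rodents. The probes measured here report copies of DNA and not expression. In the RefSeq table (assembly GRCm38.p6, used for names and order only) 11 Skint genes lie along the cluster in the order Skint8, Skint7, Skint1, Skint4, Skint3, Skint9, Skint2, Skint10, Skint6, Skint5 and Skint11. Probes name 8 of them, and none is named Skint8, Skint1 or Skint5. Skint11 lies outside the window and is no member.

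The probes that separate the channels most plainly are the 8 that were well above background in Cy5 and not in Cy3 on all 4 arrays. They are shown here because they carry the contrast between samples and pool. Sequences are printed as the array's files give them, 5′ to 3′ and in lower case, and the strand they lie on is not given. Positions of exons, introns and UTRs on mm9 were not used.
Skint4, chr4:111809439-111809498: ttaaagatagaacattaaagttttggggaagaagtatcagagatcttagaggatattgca
Skint3, chr4:111941131-111941190: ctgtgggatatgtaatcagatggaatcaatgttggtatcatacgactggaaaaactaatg
Skint3, chr4:111962345-111962404: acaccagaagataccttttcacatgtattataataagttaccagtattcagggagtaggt
Skint9, chr4:112061806-112061865: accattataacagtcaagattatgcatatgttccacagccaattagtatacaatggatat
Skint9, chr4:112073785-112073844: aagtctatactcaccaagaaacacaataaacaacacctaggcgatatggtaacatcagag
Skint9, chr4:112085584-112085643: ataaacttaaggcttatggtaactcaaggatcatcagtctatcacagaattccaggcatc
Skint9, chr4:112105510-112105569: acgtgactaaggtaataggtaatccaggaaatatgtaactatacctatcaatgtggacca
Skint6, chr4:112785621-112785680: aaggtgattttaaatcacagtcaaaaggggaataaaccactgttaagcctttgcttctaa

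A single Skint3 probe ran against its neighbours, with both channels well above background on every array. It is shown for comparison with the Skint3 probes above.
Skint3, chr4:111953767-111953826: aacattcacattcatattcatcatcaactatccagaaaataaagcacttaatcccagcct

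Over the family the pool was dim and the samples mostly were not. A probe was counted as dim in a channel when the scanner software did not mark it as well above background there on any of the 4 arrays. The level needed for the mark was not the same in both channels. On replicate 1 a Cy5 signal of 318 at a Skint9 probe was not marked, while the lowest marked Cy3 signal was 180. Of the 31 probes of the family 18 were dim in the pool channel, where 1.7% of all autosomal probes were. In the sample channel 4 of the 31 were dim, beside 6.14% of all autosomal probes. The combination of a dim pool and a sample well above background on all 4 arrays occurred at 8 of the 31 probes and at 21 autosomal probes of the whole array, 0.0401% of them. The window held 15 of those 21. Another 7 probes of the family were well above background in both channels on all 4 arrays, 4 were dim in both, and 12 changed from array to array or differed otherwise.

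The scanner software also gives a weaker mark, a signal significantly above background. By that mark 30 of the 31 probes had sample signal on all 4 arrays and 16 had pool signal on all 4. The pool signal was significant on no array at 4 probes of the family, namely 2 of Skint3, 1 of Skint9 and 1 of Skint10, beside 0.0153% of autosomal probes. The window held 5 of the 8 such probes of the whole array. Of 140 pool values behind the family, counting every spot on every array, 50 were surrogate values that the scanner software puts in place of a signal too close to background. In the sample channel there was 1 such value. A surrogate value has no order, and a ratio that rests on one says that the pool was dim and not by how much the sample exceeded it.

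**Figure D1:**
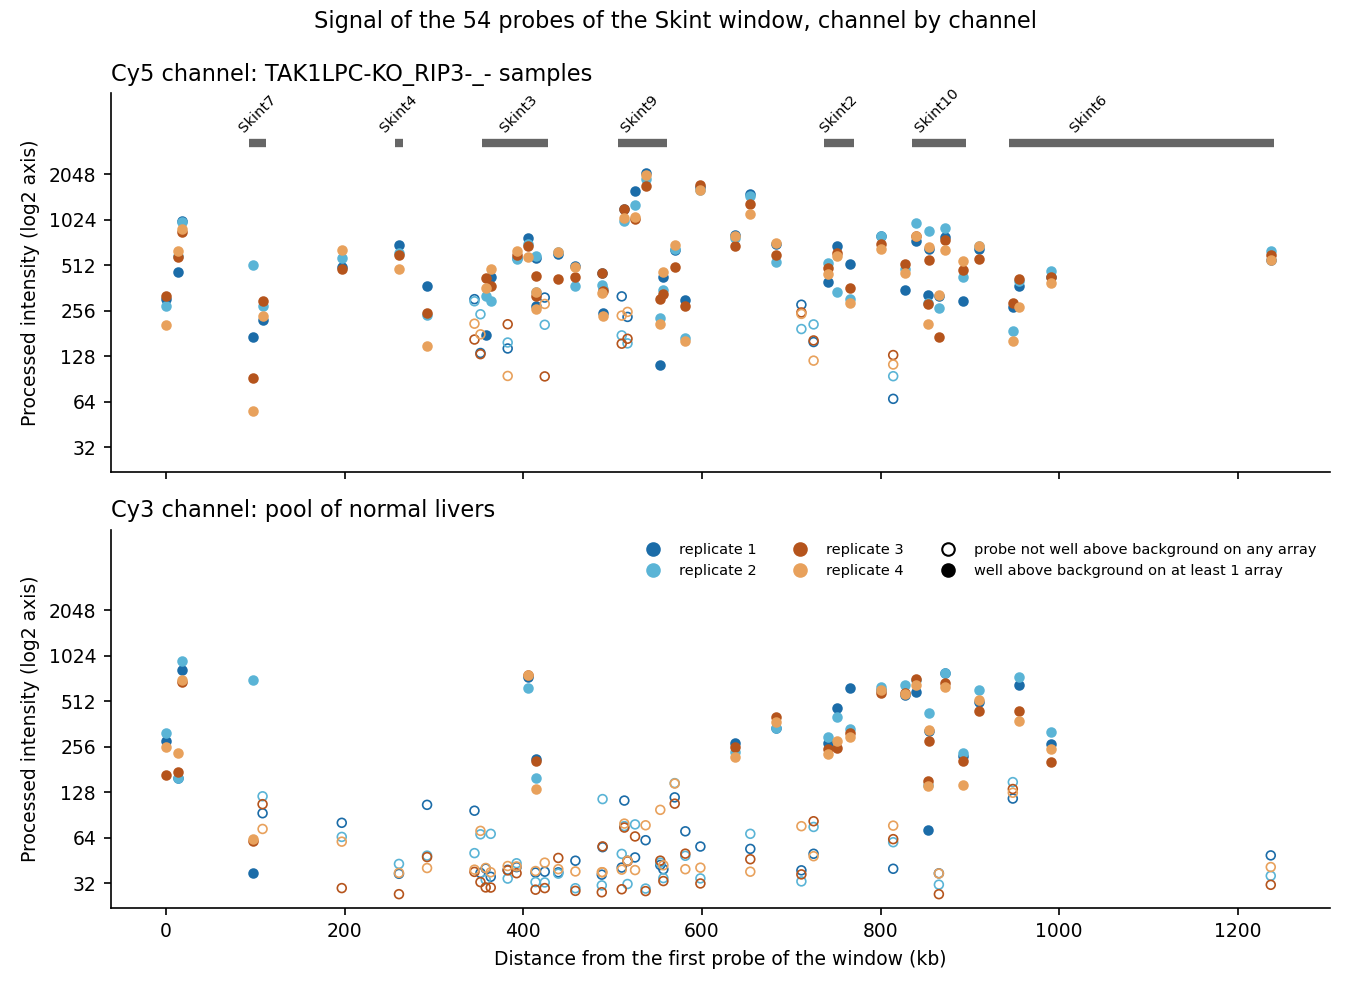
Processed intensity (log2 axis) of the 54 probes of the window on each array, samples (Cy5) above and pool (Cy3) below, by distance in kb from the first probe, with grey bars over each gene's probes. Open circles mark probes not well above background on any array, which number 33 in the pool and 9 in the samples.

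From the side of lowest position, Skint4, Skint3 and Skint9 lie in the middle of the dim stretch. Skint4 had 1 probe. The samples gave 694, 619, 593 and 486 on replicates 1 to 4, and the pool gave 37.0, 43.0, 27.1 and 37.5. The channels did not overlap, and all 4 pool values lay below the lowest signal called well above background on their array, which was 180, 150, 135 and 186. The pool was set at that floor on each array, and each array was centred on its autosomal median. As a mean over the 4 arrays, the samples were then at least 3.71-fold above the pool at the Skint4 probe. The other bounds below were made in the same way. Each bound holds for the mean over the 4 arrays, and single arrays can lie below it. Without a dye swap, a dye effect of a probe is part of its bound.

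Skint3, one of the genes active at wound edges, had 8 probes that did not behave alike. Pool signal was dim at 6 of them, and samples were well above background on all arrays at 2 of those 6. At position 111941131 the samples gave 570, 562, 595 and 638 and the pool 40.9, 43.4, 37.3 and 41.4. This put the samples at least 3.70-fold above the pool, with hardly any spread between replicates in either channel. At 111962345 the samples gave 571, 590, 435 and 339 and the pool 37.7, 32.6, 29.0 and 38.5, a bound of at least 2.96-fold. The samples on replicates 3 and 4 were lower there than on replicates 1 and 2, and the pool signal was not significant on any array.

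Between those probes lies the Skint3 probe at 111953767, printed above. Its samples gave 780, 711, 684 and 578, and its pool gave 742, 629, 759 and 766. Both channels were bright and overlapped, and the mean log2 ratio was -0.06 ± 0.28 (SD, n = 4). The probe at 111962907, which lies under 1 kb past the second dim one, was well above background in each channel on 2 of 4 arrays. Its samples gave 277, 341, 320 and 262 and its pool 213, 160, 207 and 134, so the samples were higher on every array. The mean log2 ratio was 0.78 ± 0.33 (SD, n = 4). The Skint3 probes at 111931186 and 111972661 were dim in both channels, and no bound was made for them. Their sample signal was still significantly above background on all 4 arrays, and their pool signal on 1 and 2.

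Skint9, the other gene of the family known from wound edges, had 7 probes and a dim pool at each of them. Samples were well above background on all 4 arrays at 4 of the 7. At 112085584 the samples gave 2091, 1911, 1701 and 2037, and the pool gave 61.7, 29.5, 28.4 and 77.4. The samples were at least 12.1-fold above the pool, the highest of the 8 bounds. At 112073785 the samples gave 1585, 1273, 1040 and 1074 and the pool 47.4, 78.5, 65.3 and 39.1, a bound of at least 7.67-fold. At 112061806 the samples gave 1203, 997, 1196 and 1057 and the pool 113, 76.5, 74.8 and 79.4, a bound of at least 6.95-fold. The channels of these probes stood far apart on every array.

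The last Skint9 probe with this pattern, at 112105510, gave 428, 348, 330 and 461 in the samples and 39.6, 34.6, 33.1 and 42.1 in the pool. It had the lowest bound of the 8, at least 2.43-fold. Its pool signal was not significant on any array. The bound follows the sample's own brightness at the probe, so a lower bound is no sign of a smaller difference. The Skint9 probes at 112058870 and 112065352 were dim in both channels, and at 112102035 the sample was well above background on 1 array. No bound was made for these probes. At 112058870 and 112065352 the sample signal was still significantly above background on all 4 arrays, and the pool signal on 2 and 3. Over the 8 probes of the family the bounds ran from 2.43-fold to 12.1-fold with a median of 3.71-fold.

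Skint7 lies at the near end, before Skint4. At its probe at 111645530 replicate 2 stood apart in both channels. The samples gave 170, 510, 92.3 and 55.8 and the pool 37.6, 707, 60.7 and 62.3. Both channels were well above background on replicate 2 and on no other array, although the pool is labelled the same on all 4. No outlier mark was set on the spot. The log2 ratio was 2.20 on replicate 1, -0.43 on replicate 2, 0.61 on replicate 3 and -0.17 on replicate 4, so its sign was not the same on all arrays. At the second probe, 111656718, the pool was dim and gave 93.0, 120, 107 and 73.2 beside 221, 275, 298 and 234 in the samples. That sample signal was well above background on 1 array.

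Skint2, on the far side of the dim stretch, had no probe with a dim pool. Its 3 probes had mean log2 ratios between -0.05 and 0.85. At 112289418 the samples gave 395, 529, 487 and 450 and the pool 273, 296, 246 and 230, with both channels well above background on all arrays. The lowest sample value lay above the highest pool value, and the ratio was 0.85 ± 0.20 (SD, n = 4). At 112314870 the samples gave 518, 307, 359 and 290 and the pool 630, 333, 315 and 297, and there the channels overlapped.

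Skint10 had 6 probes, of which 3 were well above background in both channels on all arrays and 1 had a dim pool. At the bright probe 112421183 the samples gave 784, 899, 756 and 643 and the pool 785, 790, 672 and 641, a ratio of 0.10 ± 0.12 (SD, n = 4). The channels overlapped almost fully. At 112402440, also bright in both, the samples gave 655, 856, 557 and 676 and the pool 324, 426, 279 and 331. The log2 ratio lay at 1.03 ± 0.02 (SD, n = 4), which is a spread of the ratios far below that of either channel. The probe with the dim pool, at 112413996, gave 317, 267, 172 and 326 in the samples and 37.2, 31.3, 27.1 and 37.1 in the pool. Its sample was well above background on 1 array, so no bound is given.

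Skint6 spans 289 kb between its first and its last probe and had 4 probes with unlike ratios. At 112504255 the pool was the brighter channel on every array, with samples at 370, 403, 412 and 271 and pool at 654, 738, 442 and 378. That probe had a mean log2 ratio of -0.55 ± 0.34 (SD, n = 4), the lowest of the family. At 112539355 both channels were well above background, with samples at 426, 466, 428 and 393 and pool at 269, 320, 204 and 249. The last probe of the gene, 112785621, has 5 spots on each array and gave 553, 638, 594 and 554 in the samples. Its pool gave 48.9, 35.8, 31.3 and 41.0, and the samples were at least 3.65-fold above it. No spot of this probe was well above background in the pool on any array.

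**Figure D2:**
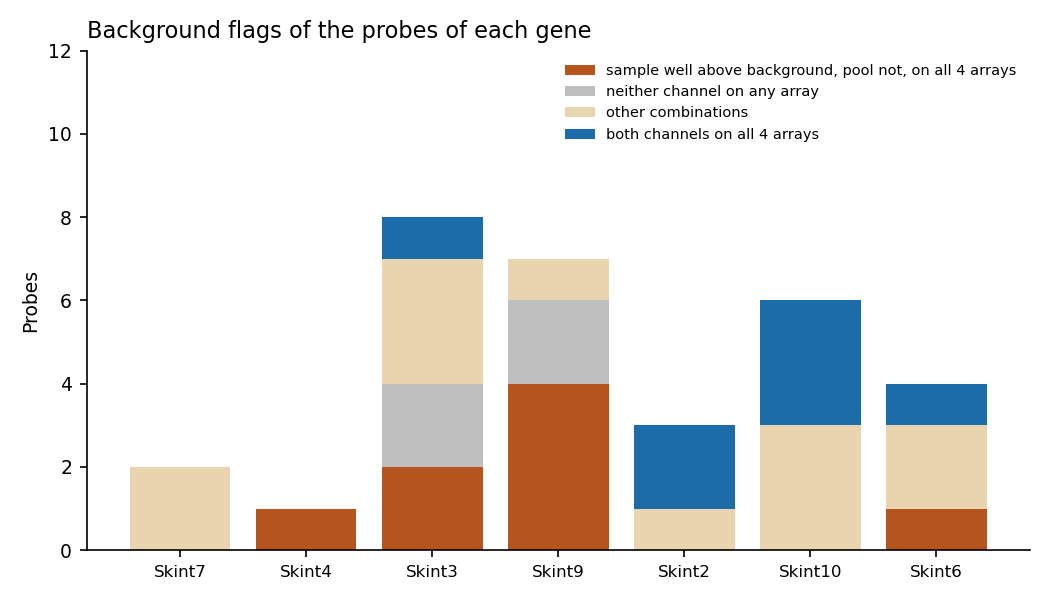
Number of probes of each gene, in genomic order, by the background marks of both channels over the 4 arrays. Skint9 has 4 of its 7 probes and Skint3 has 2 of 8 with samples well above background and the pool not, and Skint2 has none.

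As a mean over a gene's probes, the ratios were above 0 for all 7 genes on each of the 4 arrays. Ratios of the genes in the dim stretch rest on dim pool signals and are no estimates of size. Skint4 gave log2 ratios of 4.25, 3.89, 4.45 and 3.69. Skint9 gave 3.41, 3.41, 3.47 and 3.25. Skint3 gave 2.37, 2.46, 2.49 and 2.28, and left to its 1 probe that was well above background in both channels it stood at -0.06. The SD over arrays was 0.09 for Skint3 and for Skint9 and 0.35 for the single probe of Skint4, and single probes of Skint3 had SDs up to 0.74. With surrogate values in the pool, these spreads say nothing about how stable the ratios are.

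A smaller share of the probes of the other genes had a dim pool. Skint6 gave 1.16, 1.08, 1.58 and 1.06, with a mean of 1.22 ± 0.25 (SD, n = 4). Skint10 gave 1.19, 1.15, 1.02 and 1.15, with a mean of 1.13 ± 0.08 (SD, n = 4). Skint7 gave 1.73, 0.40, 1.05 and 0.75, with a mean of 0.98 ± 0.56 (SD, n = 4). Neither of its 2 probes was well above background in both channels on all arrays, so this mean is no estimate of size either. Skint2 gave 0.29, 0.20, 0.82 and 0.66, with a mean of 0.49 ± 0.29 (SD, n = 4). With only probes well above background in both channels on all arrays, Skint6 stood at 0.75 ± 0.22, Skint10 at 0.48 ± 0.07 and Skint2 at 0.76 ± 0.37 (SD, n = 4), so Skint2 no longer lay below the other 2. The order of the 7 genes is therefore not settled. Skint4, Skint9 and Skint3 cannot be ranked on dim pool signals, and Skint6, Skint10 and Skint7 had overlapping values, as had Skint7 and Skint2. Skint11 beyond the window gave 0.26, 0.49, -0.14 and 0.34.

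**Figure D3:**
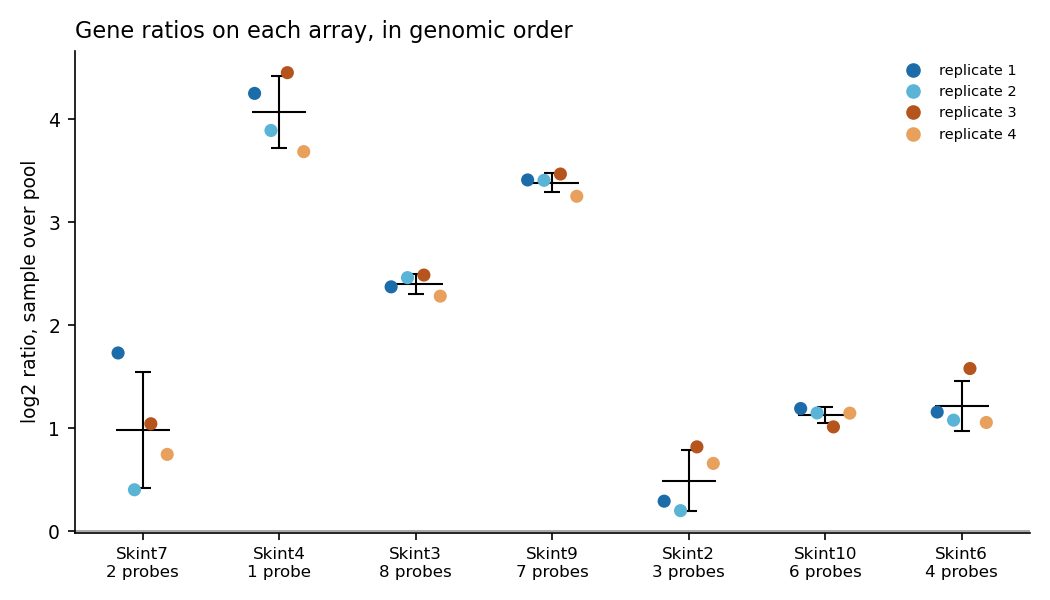
Mean log2 ratio of sample over pool of each gene on each array, points by replicate, with the mean and SD over the 4 arrays as bars. The means of Skint4, Skint9 and Skint3, at 4.07, 3.39 and 2.40, rest on mostly dim pool signals and are no estimates of size. Skint7 had no probe well above background in both channels on all arrays, and its mean is no estimate of size either.

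Of the 33 dim pool probes of the window 29 lay in a single stretch. When interruptions of up to 2 brighter probes were allowed, it ran from 111656718 to 112273763, which is 617 kb, and held 33 probes in all. It began at the second Skint7 probe, took in Skint4, Skint3 and Skint9 and ended before Skint2. Without interruptions it fell into runs of 10 probes, from 111656718 to 111941190, and 15 probes, from 111972661 to 112147017. Outside this window no run of dim pool signals on an autosome held more than 3 dim probes, with interruptions allowed.

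Within this stretch, probes that combined a dim pool with a bright sample reached from 111745389, in the transcript ENSMUST00000106565, to 112202894, over 458 kb and 14 such probes. The 15th such probe of the window is the last one of Skint6, at 112785621, beyond Skint2 and Skint10. At the near side the next probe bright in both channels was 111567005 in Slc5a9, a gene for a sugar transporter, 178 kb before the first of them. Its samples gave 997, 985, 854 and 886 and its pool 821, 950, 682 and 713. Farther out, the Slc5a9 probe at 111561586 gave 463, 586, 582 and 634 in the samples and 159, 159, 175 and 234 in the pool. Its ratio was 1.66 ± 0.22 (SD, n = 4), so a raised ratio also occurred before that flank probe. The Slc5a9 probe at 111548668 stood at 0.16 ± 0.57 (SD, n = 4). At the far side a probe bright in both channels lay 29.1 kb after the last of the 14, at 112231972. Its samples gave 702, 534, 597 and 722 and its pool 342, 339, 404 and 376. That probe is not the end of the dim stretch, which ran on to 112273763. The probes at 112260043 and 112273704 beyond it were dim in both channels. Their log2 ratios of 2.47 ± 0.55 and 1.37 ± 0.30 (SD, n = 4) rest on a dim pool. The samples were the brighter channel on all arrays at the flank probes 111567005 and 112231972, with ratios of 0.26 ± 0.11 and 0.81 ± 0.22 (SD, n = 4).

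Inside the stretch the probe in ENSMUST00000122223, at 112185756, kept a pool signal on all arrays. Its samples gave 812, 780, 688 and 796 and its pool 273, 237, 257 and 218, a ratio of 1.66 ± 0.19 (SD, n = 4). The 23 probes of the window outside the family had a dim pool at 15 positions and a dim sample at 5. Of them 7 combined a dim pool with a bright sample, with bounds from 2.51-fold to 10.3-fold and a median of 3.51-fold. The last Skint6 probe has no neighbour on its far side for 1083 kb, until the first Skint11 probe, so no edge could be placed there.

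The members' sequences did not separate the classes by base composition. The median GC content was 35.8% for the 8 probes with a dim pool and a bright sample, 35.8% for the 4 dim in both, 35.0% for the 7 bright in both and 36.7% for all 31 and for all autosomal probes. Among the probes of different members the closest pair was Skint9 at 112065352 and Skint10 at 112402440, which shared 28 of 31 aligned bases. They are shown here with the shared bases in capitals, since their marks differed.
Skint9, chr4:112065352-112065411: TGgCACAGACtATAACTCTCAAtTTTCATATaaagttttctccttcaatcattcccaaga
Skint10, chr4:112402440-112402499: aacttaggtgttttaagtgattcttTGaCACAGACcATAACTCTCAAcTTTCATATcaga
The Skint9 probe was dim in both channels and the Skint10 probe was well above background in both. How far probes of the family also bind DNA of its other genes was not tested.

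Slides allowed the only test that the choice of the family did not use. Slide 1 carried replicates 1 and 2, and slide 2 carried replicates 3 and 4, so slide and sample cannot be told apart. In a limma fit over all autosomal genes, with Benjamini-Hochberg adjustment and a size limit of 0.25, the ratio differed between slides for 0 genes, 0.0% of those tested, although 2207 had an unadjusted p under 0.05. For the Cy5 levels 0 genes were called as well, 0.0%, with 1314 at an unadjusted p under 0.05. For the Cy3 levels 6 genes were called, 0.0293%, with 4488 at an unadjusted p under 0.05. None of the 7 Skint genes was among them in any of the 3 fits.

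Skint2 had the largest difference in ratio between slides among the 7 genes. Its ratio averaged 0.25 on slide 1 and 0.74 on slide 2, a difference of 0.49 (SE 0.12; limma, adjusted p = 0.439). The values of the slides did not overlap, which is common with only 2 arrays on each slide. Channel by channel, its Cy5 level differed by 0.06 (SE 0.19; limma, adjusted p = 0.968) and its Cy3 level by -0.43 (SE 0.14; limma, adjusted p = 0.167). Centred Cy3 levels of Skint2 were -0.88, -1.28, -1.49 and -1.53 on replicates 1 to 4, so the larger of its channel differences lay in the pool. Restricted to probes well above background in both channels on all arrays, the Cy3 difference of Skint2 was called (-0.40; limma, adjusted p = 0.0425). Cy3 calls were common at that setting, with 748 genes called where the main fit called 6. Without replicate 1 the Cy3 difference of Skint2 was -0.23 (limma, adjusted p = 0.324), and without replicate 2 it was -0.63 (limma, adjusted p = 0.295). Over all settings tried the adjusted p of this difference ran from 0.0425 to 0.397. The ratio difference of Skint2 was 0.22 with normexp (limma, adjusted p = 0.512).

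For the genes in the middle of the dim stretch the difference in ratio between slides was smaller than its standard error when all 4 arrays and all probes were used. Those fits rest on mostly dim pool signals with surrogate values among them. Their errors and p-values therefore cannot show whether the slides agreed. Skint9 differed by -0.05 in ratio (SE 0.13; limma, adjusted p = 0.91) and Skint3 by -0.03 (SE 0.13; limma, adjusted p = 0.939). Skint4 differed by 0.00 in ratio to 2 decimals (SE 0.29; limma, adjusted p = 0.999). Skint4 moved to -0.39 without replicate 3 and to 0.38 without replicate 4 (limma, adjusted p = 0.649 and 0.673). On its 1 probe well above background in both channels, Skint3 differed by -0.44 (SE 0.13; limma, adjusted p = 0.304). Skint6 had a lower Cy3 level on slide 2, by -0.26 (SE 0.07; limma, adjusted p = 0.131), which did not pass the threshold. The widest errors belonged to Skint7, at -0.92 (SE 0.35; limma, adjusted p = 0.771) in Cy5 and -0.75 (SE 0.68; limma, adjusted p = 0.556) in Cy3. Without replicate 2 the Cy5 difference of Skint7 was -0.47 and its Cy3 difference turned to 0.37 (limma, adjusted p = 0.793 and 0.356). Without replicate 1 they were -1.38 and -1.87 (limma, adjusted p = 0.772 and 0.179). A p that misses the threshold does not show that the slides were alike.

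**Figure D4:**
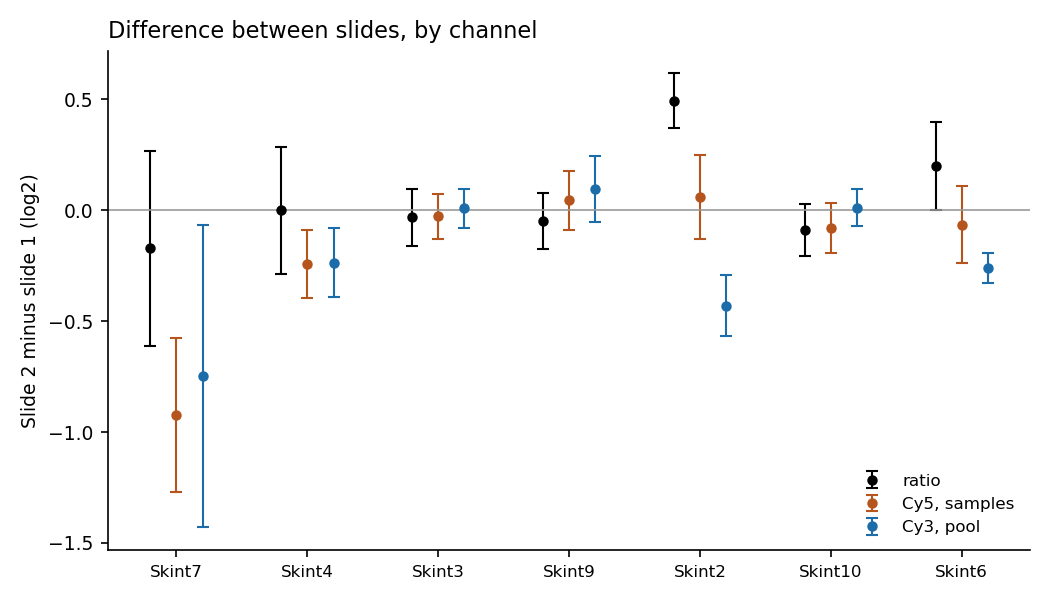
Difference between slides (slide 2 minus slide 1, log2) of the ratio, the Cy5 level and the Cy3 level of each gene, in genomic order, with the standard error of the limma fit as bars. For Skint2 the ratio lies at 0.49 and the Cy3 level at -0.43 while the Cy5 level lies at 0.06, and no gene passed the threshold.

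Relatives of the family elsewhere in the genome were read against the pool as well. Against the pool, 35.4% of all autosomal genes were called in limma at an adjusted p under 0.05 and a size of at least 0.25, with 3300 higher and 3936 lower, so a call by itself is common on these arrays. Of the 15 listed butyrophilin relatives 8 were measured, 1 was called higher and 1 lower, with a median log2 ratio of 0.05 beside -0.01 over all genes. Mog, a myelin membrane protein, stood at 0.30 ± 0.06 (SD, n = 4; limma, adjusted p = 0.0116). Btn2a2, a butyrophilin that dampens T cell responses, stood at -0.26 ± 0.09 (SD, n = 4; limma, adjusted p = 0.0236).

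Genes known from the epidermal γδ T cells on which Skint proteins act were spread on both sides of 0. Of 22 listed genes 19 were measured, 3 were called higher and 5 lower, with a median of -0.16. This is 42.1% called, beside 35.4% of all autosomal genes. The genes named below are the 3 called higher. Il15, a cytokine that sustains intraepithelial lymphocytes, had the highest ratio called, at 0.68 ± 0.11 (SD, n = 4; limma, adjusted p = 0.00157). Igf1, a growth factor that these T cells release in skin, stood at 0.63 ± 0.22 (SD, n = 4; limma, adjusted p = 0.00397), and Egr2, a transcription factor induced by receptor signalling, at 0.49 ± 0.05 (SD, n = 4; limma, adjusted p = 0.00251). Both lists were chosen with results of these arrays known, and nothing is read from them about the family.

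The combination of a dim pool and a bright sample, seen at 8 of the 31 probes of the family, was rare at genes outside the window. Outside the window 11761 autosomal genes had at least 2 probes, and 6 of them had 1 probe that combined a dim pool with a bright sample on all 4 arrays. None had more than 1 such probe, where Skint9 had 4 of 7 and Skint3 had 2 of 8. Skint4 had 1 of 1 and Skint6 had 1 of 4, and Skint2, Skint7 and Skint10 had none. Genes with fewer probes can hold fewer such probes, and by share Epm2a, Hrg and Slc6a2 below lay above Skint3 and Skint6. By share of such probes over the 4 arrays, the genes most like the family were Epm2a and Hrg with 1 of 2 probes each, Slc6a2 with 1 of 2, and C6 and N4bp2 with 1 of 3. Their mean log2 ratios were 2.03 ± 0.25 for Epm2a, 1.61 ± 0.19 for Hrg, 0.96 ± 0.21 for Slc6a2, 1.45 ± 0.25 for C6 and 0.62 ± 0.19 for N4bp2 (SD, n = 4).

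Over the whole arrays the pool was the channel more often marked well above background. Median intensities were close, at 775, 797, 753 and 771 in Cy5 and 794, 831, 760 and 772 in Cy3 on replicates 1 to 4. Cy3 was well above background at 94.7% to 97.9% of autosomal probes and Cy5 at 86.3% to 91.3%, which is the reverse of the order within the window. The level needed for that mark was not the same in both channels. The number of arrays limits the precision. The gene for TAK1, Map3k7, also lies on chromosome 4 and gave 0.47, 0.68, 0.77 and 0.68, and Ripk3 gave a mean of -0.08 ± 0.06 (SD, n = 4). No label says whether these probes lie inside the deleted sequence, and neither ratio checks the genotype.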

How the data were processed

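The 4 arrays are 2-colour Agilent copy number arrays read on mm9. The deposited intensity columns come from Feature Extraction 10.10.1.1, which per the file headers subtracted background, detrended the signals, normalised the dyes linearly and replaced signals near background by surrogates. The deposited log10 ratio column matched the ratio of those signals, with a largest deviation of 4.1e-07 on spots without surrogates, and was used only as a check. A deposited table of log2 values was used as an alternative. It correlated at 0.91 to 0.92 with the same array's ratios over 54557 probes and at no more than 0.69 with another array's, with slopes of 1.00 to 1.09 and column medians of -0.04, 0.03, 0.05 and 0.01. Its scale and direction were read from that comparison, and its within-array normalisation is unknown.

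Control spots and outlier marks were removed, log2 of Cy5 over Cy3 was taken, spots of a probe were averaged (a probe was well above background when any of its spots was), and each array was centred on its autosomal median without loess or quantile steps. A gene's value was the mean of its probes. Fits used limma 3.58.1 in R 4.3.3 (lmFit, eBayes, Benjamini-Hochberg over 20445 autosomal genes). Genes were called at an adjusted p under 0.05 and a size of at least 0.25. The fits were also run on simulated normal values without surrogates, which cannot show how they behave at genes with a dim pool. Tables were made in Python 3.11.15 with pandas 2.3.3 and numpy 2.4.6.

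A bound takes as the pool's signal on an array the lowest spot signal marked well above background there, or the probe's signal where that is larger, and averages the log2 differences over the 4 arrays. Genes named are the 7 members, other Skint genes with a probe, the named probes of the window, up to 4 genes called from each of 2 lists by absolute ratio, and the 5 genes outside the window with the highest share of probes dim in Cy3 and well above background in Cy5. Map3k7 and Ripk3 were added as the targeted genes. One gene that this rule names is not reported here. The members and lists were chosen with earlier results of these data known. Alternatives covered background correction (normexp), the source of the ratios, the filter on dim probes, centring, the summary over probes, the flag, the floor of the bounds, outlier spots, the size limit, the slide as a block and leaving out each replicate.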

Additional observations from a re-analysis of the deposited data

Results flagged for a closer look

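Among the 69 sets of 4 array values tested, 1 for each channel of each probe and for each gene's ratio, 6 had a single array far from the other 3, all in the pool channel. The measure is the gap to the nearest other array as a share of the whole range on the log2 scale, set against Dixon's critical value for 4 values, and chance marks about 1 set in 20. At Skint3, 111953767, the pool of replicate 2 was lowest at 629, with a share of 0.839. For Skint9, the pool of replicate 1 was highest at 112061806, at 113 and a share of 0.854. The pool of replicate 2 was lowest at 112065352, at 31.6 and a share of 0.979, and that of replicate 4 was highest at 112102035, at 97.9 and a share of 0.921. All 3 Skint9 values are from probes dim in the pool. At 112065352 the pool signal was significantly above background on 3 arrays only. Surrogate values were kept in the sets tested. A surrogate has no order, so a share that rests on one has no meaning, and neither has the rate of 1 in 20. For Skint2, the pool of replicate 1 was highest at 112314870, at 630 and a share of 0.845. For Skint10, the pool of replicate 1 was lowest at 112401436, at 71.7 and a share of 0.907.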

How the results depend on the processing

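Of the gene ratios of the family under other settings, 58 moved by less than the spread between replicates, 15 moved by more and 1 changed sign. Settings that left out 1 replicate or kept 1 slide reuse the same 4 arrays, and by construction their means stay within that spread. Their part of the 58 is therefore no sign of stability. Every ratio that moved by more or changed sign came from another kind of setting. The one that changed sign was Skint3, at -0.062 with only probes well above background in both channels on all arrays. With normexp and an offset of 50 Skint3 stood at 0.98, Skint4 at 1.67, Skint6 at 0.62, Skint9 at 1.56 and Skint10 at 0.58, and in the deposited table at 1.60, 2.86, 0.91, 2.26 and 0.89. With a floor at the 1st percentile the bounds ran from 1.99-fold to 9.91-fold. With the mark of significance in place of well above background, the dim pool probes fell from 18 to 4 and the dim sample probes from 4 to 0. Counted as dim on at least 1 array, 16 sample probes were dim, and leaving out single replicates gave 4 to 8, with 8 without replicate 3. Spots with outlier marks, when kept, gave the same counts of 18 and 4. The slide difference of ratios called 4 genes with normexp and 3 with the filter on dim probes, in place of 0. For Cy5 levels leaving out single replicates gave 0 to 1 genes, with 1 without replicate 4. For Cy3 levels the filter on dim probes gave 748 genes in place of 6, and leaving out single replicates gave 0 to 21, with 0 without replicate 1, 0 without replicate 2, 3 without replicate 3 and 21 without replicate 4. At a size limit of 0.5 the genes called against the pool fell from 7236 to 2383, the butyrophilin relatives from 2 to 0 and the epidermal T cell genes from 8 to 2. The butyrophilin count was 3 with the filter on dim probes, 1 with normexp, 1 in the deposited table and 1 to 2 without single replicates (1 without replicates 1, 2 or 3). The causes were not tested. No paired analysis was possible because the series has 1 group. At the 29 probes of the stretch with a dim pool a ratio gives only a bound. Bounds were made only where the sample was well above background on all 4 arrays.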
